A study of Mus musculus with 16 samples.

Results

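Mt1 and Mt2 encode the liver's 2 main metallothioneins, and this account follows both transcripts in fixed livers of furan-treated and control mice. Every probe of the array whose accession belongs to either gene was taken, which gave 1 probe for Mt1 (A_66_P111660, NM_013602) and 1 probe for Mt2 (A_51_P246317, NM_008630) among 55681 probes, or 2 of 20660 genes with a symbol. The study measured liver RNA of female B6C3F1 mice, a hybrid strain used in toxicology, bought at 5 to 6 weeks of age. Mice were gavaged for 21 days with furan in corn oil, at a dose of 8 mg per kg, or with corn oil alone as controls, and were killed 4 h after their last dose. Furan is a toxicant that P450 enzymes of the liver oxidise to a reactive dialdehyde. The 4 groups were corn-oil controls and furan-treated mice whose livers lay in formalin for 18 h, and corn-oil controls and furan-treated mice whose livers lay in formalin for 3 weeks, all then embedded in paraffin. The 18 h livers gave RNA from 1 section of 10 µm and the 3-week livers from 2, and the effects of section number and time cannot be told apart. The RNA integrity numbers in the labels ran from 1.3 to 2.4, the range of strongly fragmented RNA.

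Metallothioneins are small cysteine-rich proteins that bind zinc and copper, take up cadmium, and react with oxidants and electrophiles through their thiols. In liver both genes are switched on by zinc through MTF1, a zinc-sensing transcription factor that binds metal response elements, and also by glucocorticoids, by interleukin 6 and by oxidative stress. Mt3 and Mt4 are the family's other members, known mainly from brain and from stratified epithelium. In RefSeq's gene order on mouse chromosome 8 the genes follow each other as Mt4, Mt3, Mt2 and Mt1, with Nup93, a nuclear pore gene, next to Mt1.

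The promoters of both genes are shown because metal response elements are what both genes share. Each sequence is the 250 bases before RefSeq's annotated transcription start in build GRCm38.p6, plus strand, at chr8:94178839-94179088 for Mt1 and chr8:94172368-94172617 for Mt2. Capitals mark every match to the core of a metal response element, TGCACNC or TGCGCNC on either strand.
Mt1: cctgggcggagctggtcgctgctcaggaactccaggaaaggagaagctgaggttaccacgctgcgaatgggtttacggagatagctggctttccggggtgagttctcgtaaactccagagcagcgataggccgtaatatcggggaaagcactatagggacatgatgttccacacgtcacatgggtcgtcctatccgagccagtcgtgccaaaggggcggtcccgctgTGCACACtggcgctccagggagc
Mt2: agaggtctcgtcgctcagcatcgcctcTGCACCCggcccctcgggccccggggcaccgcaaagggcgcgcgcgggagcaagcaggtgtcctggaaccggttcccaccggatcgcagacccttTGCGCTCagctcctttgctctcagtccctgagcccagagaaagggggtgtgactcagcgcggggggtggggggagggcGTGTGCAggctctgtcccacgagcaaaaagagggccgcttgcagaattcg

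Over the table's full window of 300 bases, which adds 50 bases after the start, Mt1 held 3 matches to the core and Mt2 held 4. At least 1 match was present in 25.7% of 32851 promoter windows of the same length, at least 3 in 1.31% and at least 4 in 0.295%. The Mt2 window also held 1 match to the core of an antioxidant response element, TGACNNNGC on either strand, as 12.4% of windows did. The Mt1 window held none, but only 1 of its 3 matches to the metal response core lay before the annotated start. Bases beyond the windows were not searched, so these counts do not show that Mt1 lacks such an element. The STAT pattern TTCNNNGAA was in neither window and in 8.3% of all windows. A match is a match of letters only, and the start sites used in these livers were not measured.

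On each of 16 arrays, 4 to a group, a liver (Cy5) was hybridised beside a pool of all samples (Cy3), so every value is a log2 ratio of sample over pool after normalization. Arrays 2.1 and 2.2 of the 3-week controls share the sample number 2 and were averaged, which left 15 samples and 3 controls at 3 weeks. Both of the 2 slides held 2 arrays of every group. At 18 h, 44.4% to 50.2% of probes on control arrays and 51.9% to 55.3% on furan arrays were well above background. At 3 weeks these shares were 32.4% to 36.8% for controls and 35.9% to 41.5% for furan livers. All 9 tested hepatocyte markers, among them Alb and Ttr, were above background on every array, whereas none of the 3 tested cholangiocyte markers was. How finely any of these values is known is set by the few arrays per group.

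Mt1 and Mt2 were both brightly measured. Only 3.24% of the 29712 probes bright enough to test had a higher mean brightness than the Mt1 probe, and 2.04% than the Mt2 probe. Both probes were well above background on all 16 arrays and saturated on 0. The sample signal of Mt1 was between 42.9 and 241 times its local background, and that of Mt2 between 87.8 and 454 times. Probe sequences were not used here, so whether each probe also binds the other gene's transcript was not tested.

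In 18 h controls the log2 ratio of Mt1 over the pool was -0.17 in sample 2, 0.74 in sample 3, 0.21 in sample 4 and 0.34 in sample 6. In 18 h furan livers it was 0.56 in sample 41, 0.57 in sample 42, -0.06 in sample 43 and -0.75 in sample 44. Furan samples 41 and 42 lay within the control range and sample 44 lay below every control, so the groups overlapped. The means were 0.28 ± 0.37 (SD, n = 4) in controls and 0.08 ± 0.63 (SD, n = 4) with furan.

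For Mt2 the 18 h controls gave log2 ratios of -0.52 in sample 2, 0.36 in sample 3, -0.40 in sample 4 and -0.18 in sample 6. The 18 h furan livers gave 0.33 in sample 41, 0.63 in sample 42, 0.13 in sample 43 and -0.57 in sample 44. Here furan sample 42 was the highest of the 8 and furan sample 44 the lowest, so the groups again overlapped. The means were -0.19 ± 0.39 (SD, n = 4) in controls and 0.13 ± 0.51 (SD, n = 4) with furan.

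At 3 weeks the Mt1 ratio in controls was -0.79 and -0.76 on arrays 2.1 and 2.2, averaged to -0.77, then -0.51 in sample 4 and -0.40 in sample 6. Furan livers at 3 weeks gave -0.49 in sample 41, -0.50 in sample 42, -0.88 in sample 43 and -1.30 in sample 44. Furan samples 41 and 42 fell among the controls, while 43 and 44 lay below all of them. The means were -0.56 ± 0.19 (SD, n = 3) and -0.79 ± 0.39 (SD, n = 4).

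The Mt2 ratio in 3-week controls was -0.87 and -0.82 on arrays 2.1 and 2.2, averaged to -0.84, then -0.76 in sample 4 and -0.55 in sample 6. In 3-week furan livers it was -0.80 in sample 41, -0.48 in sample 42, -1.01 in sample 43 and -1.38 in sample 44. The order within the furan group was that of 18 h, with 42 highest and 44 lowest, and the groups overlapped. The means were -0.72 ± 0.15 (SD, n = 3) and -0.92 ± 0.38 (SD, n = 4).

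**Figure D1:**
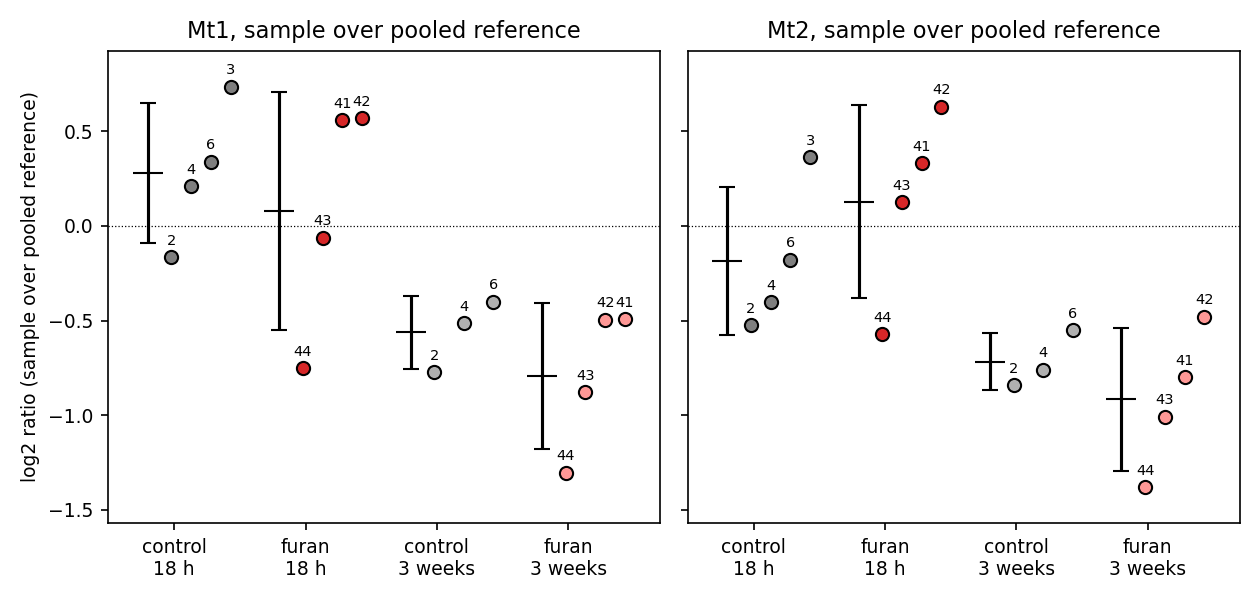
Log2 ratio of sample over pooled reference for Mt1 (left) and Mt2 (right), 1 numbered point per sample in 4 groups, with the group mean and SD as a bar beside the points. All 7 samples at 3 weeks lie below 0 for both genes, and furan sample 44 is the lowest of its group at both times.

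In order of mean level, Mt1 ran from 18 h controls through 18 h furan livers and 3-week controls to 3-week furan livers. Mt2 began with 18 h furan livers, followed by 18 h controls, 3-week controls and 3-week furan livers. Neighbours in these orders that share a time did not differ beyond their spread. For Mt2 the neighbours of different times were both control groups, which are compared below. For Mt1 they were 18 h furan livers and 3-week controls, which were not compared. Both genes spread widely within groups: the residual SD after group and slide was 0.330 for each, against a median of 0.189 over all tested probes. Of all probes, 95.1% had a lower residual SD than Mt2, and nearly the same share had a lower one than Mt1. Slide 2 was lower than slide 1 by 0.54 (SE 0.15) for Mt1 and by 0.42 (SE 0.15) for Mt2 on the log2 scale, neither of which passed the test after adjustment (adjusted p = 0.233 and 0.297). Each slide value pools all groups, and in 3-week controls slide 2 was the higher. There the array means of slides 1 and 2 were -0.65 and -0.58 for Mt1, and -0.81 and -0.68 for Mt2. Furan samples 41 and 42 lay on slide 1 and 43 and 44 on slide 2 at both times. A slide difference thus cannot be told apart from one between livers. Arrays 2.1 (slide 1) and 2.2 (slide 2) of sample number 2 gave -0.79 and -0.76 for Mt1, and -0.87 and -0.82 for Mt2.

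The first comparison asked whether furan changed metallothionein expression in liver fixed for 18 h. Neither gene passed the test. The log2 difference of furan minus control was -0.20 for Mt1 (SE 0.19, 95% interval -0.62 to 0.22, adjusted p = 0.404) and 0.31 for Mt2 (SE 0.20, 95% interval -0.12 to 0.74, adjusted p = 0.205), by limma with slide as a term and Benjamini-Hochberg adjustment over all tested probes. Both intervals leave room for moderate changes: for Mt2 a rise of 0.74 on the log2 scale lies within it. Of all probes tested, 47.2% were called in this comparison at an adjusted p under 0.05 and the median difference was -0.0539, so 0 of 2 metallothionein probes were called where nearly every second probe was. At an unadjusted p under 0.05 the count was also 0 of 2, against 54.7% of all probes, and the groups did not overlap for 39.2% of all probes. An exact two-sided permutation of the 8 samples gave p = 0.6 for Mt1 and 0.4 for Mt2, where 0.0286 was the smallest value possible.

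This outcome at 18 h depended on how the arrays were scaled. With each array centred on its median in place of loess, a correction of the dye ratio along the brightness scale, Mt2 was higher with furan by 0.87 and passed the test (adjusted p = 7.15e-05), and the Mt1 difference turned to 0.35 (adjusted p = 0.0779). Median centring also raised the median over all tested probes to 0.0961 and turned the balance of all calls from 6060 higher and 7971 lower to 9861 higher and 2679 lower. With the authors' deposited table the balance was 7760 higher and 6341 lower, and Mt1 and Mt2 were not called. The Mt2 call also depended on 1 liver: without furan sample 44 the difference was 0.49 and passed (adjusted p = 0.0484). On slide 1 alone the difference was 0.09 for Mt1 and 0.50 for Mt2, and on slide 2 alone -0.49 for Mt1 and 0.13 for Mt2. Without the slide term the SE at 18 h was 0.27 for Mt1 and 0.24 for Mt2, and neither was called.

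At 3 weeks the furan comparison again gave no call. The log2 difference was -0.23 for Mt1 (SE 0.18, 95% interval -0.64 to 0.18, adjusted p = 0.629) and -0.20 for Mt2 (SE 0.19, 95% interval -0.61 to 0.21, adjusted p = 0.691) by limma. Only 0.118% of probes were called in this comparison, with a median difference of -0.000705, so the absence of a call for 2 probes is what nearly all probes share. At an unadjusted p under 0.05 the count was again 0 of 2, against 13.8% of all probes, and the groups did not overlap for 13.4% of them. Exact two-sided permutation gave p = 0.457 for Mt1 and 0.486 for Mt2. The sign was not stable: median centring gave 0.19 for Mt1 and 0.22 for Mt2. Slide 1 alone gave 0.16 and 0.18, and slide 2 alone -0.51 for both.

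The change of the furan difference from 18 h to 3 weeks was tested directly with an interaction term over all 15 samples. It was -0.03 for Mt1 (SE 0.29, 95% interval -0.65 to 0.59, adjusted p = 0.961) and -0.51 for Mt2 (SE 0.29, 95% interval -1.13 to 0.11, adjusted p = 0.263). In this comparison 12.7% of probes were called, and 28.6% had an unadjusted p under 0.05, which neither gene had. A different furan effect at the 2 times was thus not shown for either gene, and for Mt1 the sign of this value changed with the background correction.

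**Figure D2:**
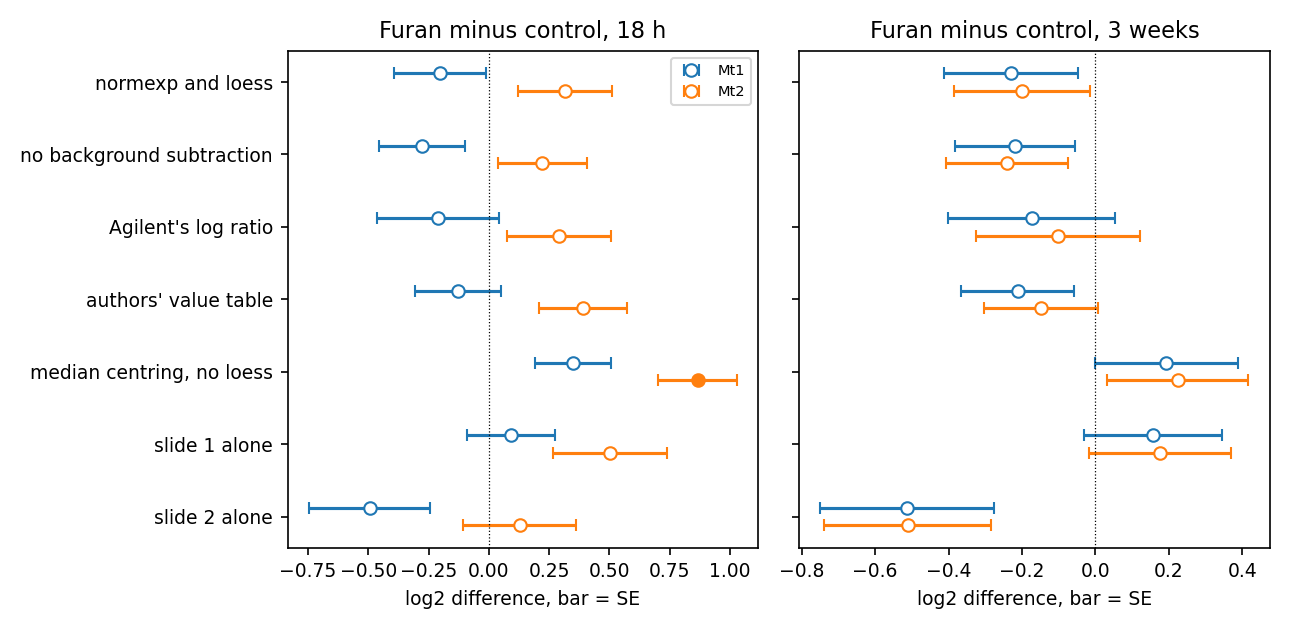
Log2 difference of furan minus control for Mt1 and Mt2 at 18 h (left) and 3 weeks (right) under 7 ways of processing or splitting the arrays, with SE as the bar and a filled point where the adjusted p is under 0.05. The filled point is Mt2 at 18 h after median centring (0.87), and at 3 weeks both genes are above 0 after median centring and on slide 1 alone.

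Mt1 and Mt2 went up and down together from liver to liver. After each group's mean was removed, the 2 genes' deviations over the 15 samples correlated at Pearson r = 0.945 (p = 5e-05) and Spearman rho = 0.932 (p = 6e-05), by 100000 two-sided permutations of samples within groups. No other pair of genes was tested in this way. The permutation treated the 15 samples as separate and did not hold slide fixed. Since 7 sample numbers occur at both times with similar deviations, its p values may be too small. Without furan samples 44 of 18 h and 44 of 3 weeks, the farthest from the median of Mt1, r was 0.894. On slide 1 alone r was 0.823 and on slide 2 alone 0.987. Each slide held 2 arrays of every group, whose deviations mirror each other, so each of these r values rests on only 1 contrast per group. Both values of a sample come from the same array and the same RNA, and the part of probe cross-binding in r was not tested.

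**Figure D3:**
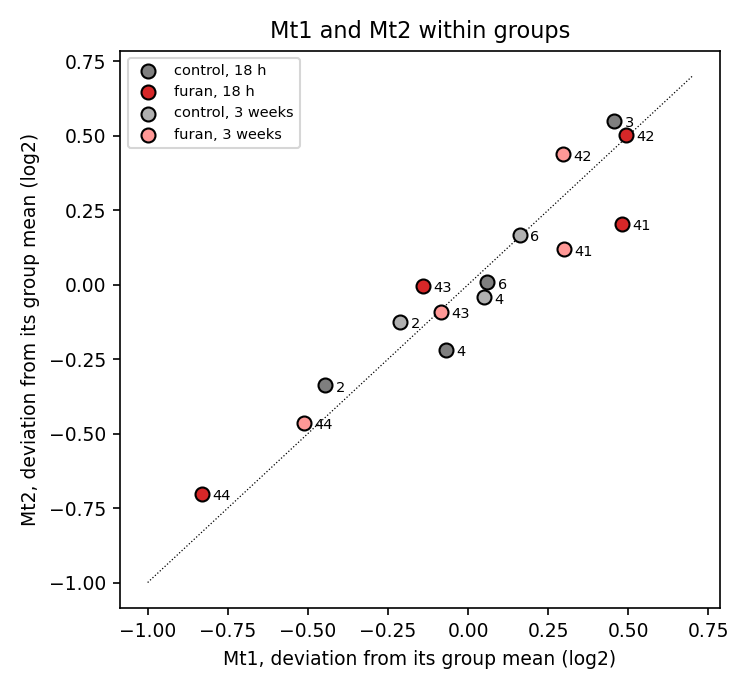
Deviation of each sample from its group mean (log2) for Mt1 (horizontal) and Mt2 (vertical), 15 numbered samples coloured by group, with the line of equal deviations dotted. The points follow the line (r = 0.945), and furan samples 44 of both times form the low end.

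The balance between the genes, taken as the log2 ratio of Mt1 minus that of Mt2 in the same sample, was examined after the values had been seen. In 18 h controls it was 0.36 in sample 2, 0.37 in sample 3, 0.61 in sample 4 and 0.52 in sample 6. In 18 h furan livers it was 0.23 in sample 41, -0.06 in sample 42, -0.19 in sample 43 and -0.18 in sample 44. All 4 furan livers lay below all 4 controls, although neither gene alone separated the groups. Of single probes 39.2% did not overlap in this comparison, and no such share was computed for differences of 2 probes. The difference of the means was -0.52, with an exact two-sided permutation p = 0.0286, the smallest that 4 against 4 can give, and 0.0572 after adjustment over 4 comparisons. It lay between -0.52 and -0.50 under 4 other normalizations, median centring included. A shift of a whole array cancels in this measure, so little change between normalizations is no separate support for it. With Agilent's own log ratio the exact permutation p was 0.0571. Since each ratio is taken against the pool, this compares groups and does not say which transcript was more abundant.

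At 3 weeks the same measure was 0.07 in sample 2, 0.25 in sample 4 and 0.15 in sample 6 of the controls. In 3-week furan livers it was 0.31 in sample 41, -0.02 in sample 42, 0.13 in sample 43 and 0.08 in sample 44. Controls and furan livers overlapped, with a difference of -0.03 (exact two-sided permutation p = 0.743). Between the times it was lower at 3 weeks by a difference of -0.31 in controls (exact permutation p = 0.0286, 0.0572 after adjustment), a value that ran from -0.47 after median centring to -0.26 with the authors' deposited table. It differed by 0.17 in furan livers (exact permutation p = 0.171).

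**Figure D4:**
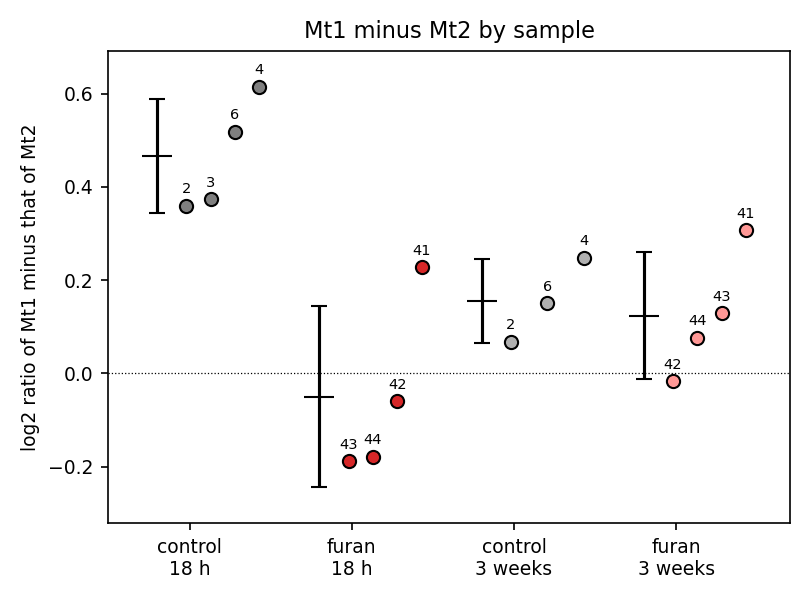
Log2 ratio of Mt1 minus that of Mt2 in each sample (vertical), 1 numbered point per sample in 4 groups, with the group mean and SD as a bar beside the points. The 18 h controls lie between 0.36 and 0.61 and the 18 h furan livers between -0.19 and 0.23, while the 3-week groups overlap.

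Both metallothioneins were lower in liver that had stayed in formalin for 3 weeks. In controls Mt1 fell by 0.84 on the log2 scale (SE 0.21, 95% interval -1.30 to -0.39, adjusted p = 0.00292), to 0.557 times its 18 h level. Mt2 fell by 0.53 (SE 0.22, 95% interval -0.99 to -0.08, adjusted p = 0.0427), to 0.691 times. In these limma tests 59.3% of all probes were called and 30.8% were called lower, so a call here is shared with much of the array. Median centring changed that balance from 8479 higher and 9149 lower to 4059 higher and 12551 lower, and both genes stayed lower and called. For both genes every 3-week control lay below every 18 h control, as the groups did not overlap for 58.6% of probes.

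In furan livers Mt1 fell by 0.87 (SE 0.20, 95% interval -1.29 to -0.45, adjusted p = 0.00105), to 0.546 times, and Mt2 fell by 1.05 (SE 0.20, 95% interval -1.47 to -0.62, adjusted p = 0.000217), to 0.484 times. Here 67.1% of probes were called and 32% were called lower, and median centring gave 4314 higher and 14159 lower. The ranges overlapped for both genes, though not for 57.6% of all probes, because furan sample 44 at 18 h lay below the highest furan samples at 3 weeks. Exact two-sided permutation of the samples gave p = 0.0571 for both genes in controls, and 0.0857 for Mt1 and 0.0571 for Mt2 in furan livers.

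The Mt2 fall in controls is the least certain of these. It lost its call without 18 h control 3 (-0.41, adjusted p = 0.136), 18 h control 6 (-0.45, 0.114), 3-week control 2 (-0.47, 0.124) or 3-week control 4 (-0.39, 0.186). On slide 2 alone the difference was -0.33 for Mt2 in controls (adjusted p = 0.290), -0.67 for Mt1 in controls (0.0620) and -0.68 for Mt1 in furan livers (0.0531).

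Other values moved with the time in formalin. The share of probes above background fell by 13.0 percentage points in controls and fell by 15.6 in furan livers (exact permutation p = 0.0286 for each, the smallest possible). Of the 9 tested hepatocyte markers 6 were called lower and 0 higher at 3 weeks in controls (median log2 difference -0.98), and 6 lower and 1 higher in furan livers (median -0.94). Over all probes 30.8% were called lower in controls and 32% in furan livers. The mean log2 ratio of these markers was 0.49 to 0.57 in 18 h controls, -0.08 to 0.03 in 18 h furan livers, -0.71 to -0.36 in 3-week controls and -1.03 to -0.63 in 3-week furan livers. With furan at 18 h, 6 of the 9 were called lower (median -0.71), against 26.8% of all probes. None of the 9 was at background. Other cell types moved too. Of 6 endothelial markers, 4 were called lower and 0 higher with time in controls, and 4 lower and 1 higher in furan livers. Lymphocyte markers went the other way, with 2 of 3 called higher in controls and 1 in furan livers, as did 2 of 3 pancreatic acinar markers in furan livers. With furan at 18 h, 4 of 6 erythroid markers were called lower and 0 higher, and 4 of 7 stellate markers lower and 2 higher. The part of these shifts in the metallothionein values was not tested, and in bulk tissue fewer cells of a type and less RNA per cell cannot be told apart.

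The other genes of zinc and metallothionein biology were read from a list of 23, of which 18 were bright enough to test. With furan at 18 h, 10 were called higher and 4 lower (median log2 difference 0.28), against 20.4% higher and 26.8% lower of all probes tested. Mtf1, the zinc-sensing activator of both metallothioneins, rose by 0.39 (SE 0.09, adjusted p = 0.00355), and its other probe rose by 0.22 (adjusted p = 0.0493). Its log2 ratios were -0.15 to 0.06 in the 4 controls and 0.22 to 0.49 in the 4 furan livers. The groups did not overlap, as for 39.2% of all probes. At 3 weeks Mtf1 differed by 0.27 (adjusted p = 0.454), with -0.58 to -0.47 in 3 controls and -0.45 to 0.01 in 4 furan livers. With the time in formalin Mtf1 fell by 0.49 in controls (adjusted p = 0.00195) and by 0.61 in furan livers (adjusted p = 0.000126).

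Among zinc transporters, Slc39a7, which releases zinc from the endoplasmic reticulum, rose by 0.74 with furan at 18 h (SE 0.08, adjusted p = 5.42e-05). Its log2 ratios were -0.58 to -0.34 in controls and 0.21 to 0.40 in furan livers. Slc30a9, a mitochondrial zinc exporter, fell by 0.97 (SE 0.10, adjusted p = 4.24e-05), and its other probe fell by 0.50 (adjusted p = 0.000689). Slc30a7, which loads zinc into the secretory pathway, gave 2 opposite results: its brighter probe fell by 0.69 (SE 0.10, adjusted p = 0.000311) and its other probe rose by 0.45 (adjusted p = 0.00547). Under no background subtraction, Agilent's log ratio, the authors' table and median centring, Mtf1, Slc39a7, Slc30a9 and the brighter Slc30a7 probe kept their signs and calls at 18 h.

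At 3 weeks 0 of the 18 zinc genes were called with furan by limma (median 0.22), and 4 had an unadjusted p under 0.05, all of them higher. Over all probes 13.8% had such a p, in either direction. Median centring called 3 of the 18 higher and 0 lower, beside 2078 higher and 234 lower of all 29712 probes. The smallest p was that of Slc30a10, a manganese exporter, which differed by 0.52 (SE 0.15, adjusted p = 0.197) and was measured below the background limit on all 3-week control arrays. Mt4 was tested and differed by -0.17 at 18 h (adjusted p = 0.416) and -0.33 at 3 weeks (adjusted p = 0.483). Mt3 was above background on 0 arrays. Slc30a1, the plasma membrane zinc exporter that MTF1 also controls, was above background on at most 1 array of a group and could not be tested. With the time in formalin 3 zinc genes were called higher and 6 lower in controls, and 6 higher and 5 lower in furan livers, beside 28.5% of all probes called higher in controls and 35.1% in furan livers. Called lower were 30.8% of all probes in controls and 32% in furan livers.

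**Figure D5:**
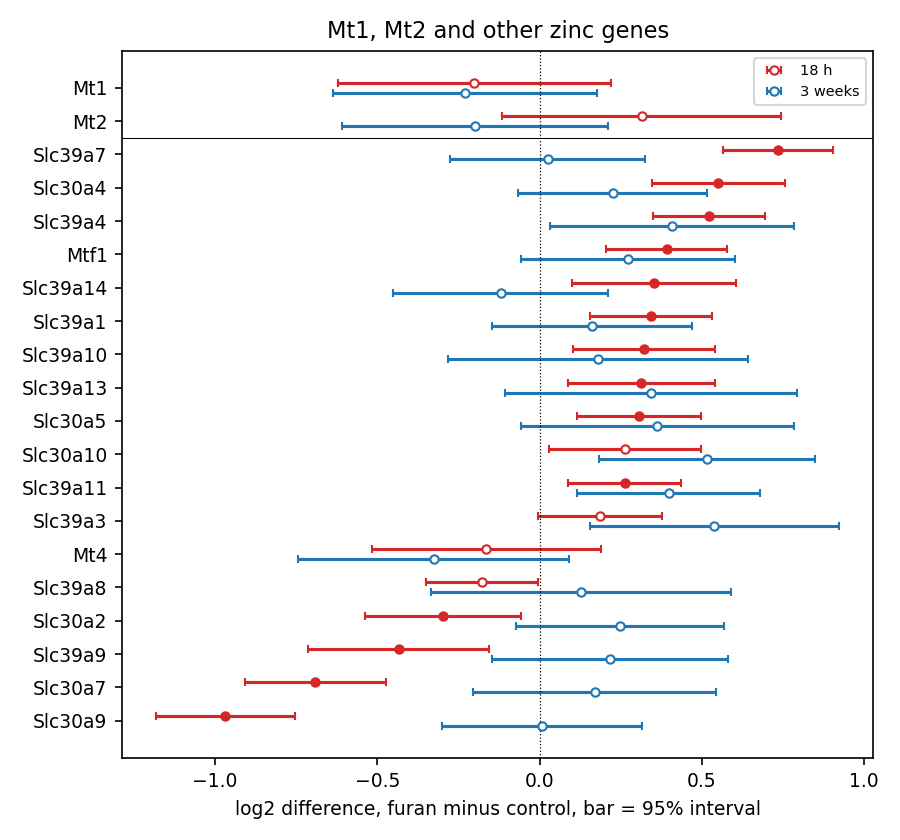
Log2 difference of furan minus control at 18 h (red) and 3 weeks (blue) for Mt1 and Mt2 (above the line) and the 18 other tested genes of the zinc list, with 95% intervals and filled points where the adjusted p is under 0.05. At 18 h 10 genes of the list are filled above 0 and 4 below, while Mt1 and Mt2 are open at both times.

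Copper also binds metallothionein, and of 15 copper-handling genes 1 was called higher and 5 lower with furan at 18 h (median -0.23). Over all probes tested these shares were 20.4% higher and 26.8% lower. Atp7b, the copper pump that sends copper into bile, fell by 1.08 (SE 0.10, adjusted p = 2.88e-05), from -0.01 to 0.32 in controls to -1.25 to -0.68 in furan livers. Steap3, a metalloreductase, fell by 0.38 (SE 0.09, adjusted p = 0.00702), while its other probe differed by 0.07. Atp7a, the related copper pump, fell by 0.31 (SE 0.10, adjusted p = 0.0227), a call that was lost with Agilent's log ratio (-0.25, adjusted p = 0.226), with the authors' deposited table (-0.17, 0.0769) and in 4 of 8 fits that each left out 1 sample. This list's balance turned with the scaling: Agilent's log ratio gave 1 higher and 2 lower, the authors' values 4 higher and 2 lower, and median centring 5 higher and 1 lower with a median of 0.26, in which Atp7b still fell by 0.57 but Steap3 differed by 0.08 and Atp7a by -0.02. Over all 29712 probes these scalings gave 6208 higher and 5886 lower, 7760 and 6341, and 9861 and 2679, in that order. At 3 weeks 0 were called (median 0.10), or 3 higher after median centring, which called 2078 of all probes higher. An unadjusted p under 0.05 was found for 1 gene, against 13.8% of all probes. The smallest p was that of Steap4, a metalloreductase, which differed by 0.57 (SE 0.15, adjusted p = 0.166), again with 3-week controls below the background limit.

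Glucocorticoid-induced liver genes, which share a hormonal inducer with metallothioneins, had 7 called higher and 3 lower of 13 tested at 18 h (median 0.44), and 10 higher and 2 lower after median centring. With normexp and loess, all probes gave 20.4% higher and 26.8% lower. Median centring called 9861 of all 29712 probes higher and 2679 lower. Dusp1, a MAP kinase phosphatase, rose by 0.73 (SE 0.10, adjusted p = 0.000294). Pck1, the gluconeogenic enzyme, fell by 1.20 (SE 0.12, adjusted p = 4.38e-05) and Tat, tyrosine aminotransferase, fell by 0.94 (SE 0.13, adjusted p = 0.000312). At 3 weeks 0 were called (median 0.10), or 3 higher after median centring, which called 2078 of all probes higher. An unadjusted p under 0.05 was found for 4 genes, against 13.8% of all probes. Pck1, with the smallest p, differed by -0.61 (SE 0.16, adjusted p = 0.173).

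Of 20 tested genes of interleukin 6 signalling and the acute phase, 7 were called higher and 7 lower at 18 h (median 0.13). All probes gave 20.4% higher and 26.8% lower. Cebpb, a transcription factor of the acute phase, rose by 0.91 (SE 0.10, adjusted p = 8.12e-05). Apcs, serum amyloid P, fell by 0.97 (SE 0.12, adjusted p = 0.000107) and Orm1, an acid glycoprotein, fell by 0.92 (SE 0.12, adjusted p = 0.000173). Median centring moved this list to 13 higher and 4 lower, and the authors' values to 11 higher and 7 lower. Over all 29712 probes median centring gave 9861 higher and 2679 lower, and the authors' values 7760 higher and 6341 lower. At 3 weeks 0 were called (median -0.04) and 4 had an unadjusted p under 0.05, against 13.8% of all probes. Median centring called 5 higher (median 0.35) and the authors' values 1 higher, where they called 2078 and 167 of all probes higher. Lcn2, a siderophore-binding protein, had the smallest p with a difference of 0.56 (SE 0.19, adjusted p = 0.230), and after median centring it was called with a difference of 0.91 (adjusted p = 0.00477).

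The antioxidant genes of NRF2 and glutathione had 11 called higher and 2 lower of 16 tested at 18 h (median 0.67), and 12 higher and 0 lower after median centring. With normexp and loess, all probes gave 20.4% higher and 26.8% lower. Median centring called 9861 of all 29712 probes higher and 2679 lower. Ephx1, an epoxide hydrolase, rose by 1.26 (SE 0.10, adjusted p = 1.52e-05), while its other probe differed by 0.17. Txnrd1, thioredoxin reductase, rose by 0.91 (SE 0.09, adjusted p = 3.10e-05). Gstm1, a glutathione S-transferase with close paralogs, rose by 0.72 (SE 0.08, adjusted p = 9.51e-05), while its other probe differed by 0.12. At 3 weeks 0 were called with normexp and loess (median 0.29) and 7 had an unadjusted p under 0.05, against 13.8% of all probes. The count of calls changed with the processing: 5 were called higher without background subtraction, 4 with the authors' deposited table, 7 after median centring and 0 with Agilent's log ratio. Of all 29712 probes these settings called 199, 167, 2078 and 0 higher, in that order. Srxn1, sulfiredoxin, differed by 0.80 (SE 0.14, adjusted p = 0.0686), with an adjusted p of 0.0102 without background subtraction, 0.0130 with the authors' deposited table, 4.91e-05 after median centring and 0.245 with Agilent's log ratio. Gstm1 and Txnrd1 were called higher under the same 3 alternatives.

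Heat shock genes had 3 called higher and 0 lower of 5 tested at 18 h (median 0.41), against 20.4% higher and 26.8% lower of all probes. Hsp90aa1, a cytosolic chaperone, rose by 0.93 (SE 0.10, adjusted p = 4.96e-05). Hspb1, a small heat shock protein, rose by 0.93 (SE 0.14, adjusted p = 0.000461), and Hsph1, a partner of Hsp70, by 0.41 (SE 0.08, adjusted p = 0.00273). With normexp and loess, Hspb1 was the 1 gene of the 6 lists called at 3 weeks, in a comparison with 0.0875% of all probes called higher, where it rose by 1.40 (SE 0.18, adjusted p = 0.0252), from -0.29 to 0.08 in 3 controls to 0.97 to 1.53 in 4 furan livers. That call held in 2 of 7 fits that each left out 1 sample (adjusted p up to 0.163), and Agilent's log ratio gave 1.47 with an adjusted p of 0.233. Without background subtraction, with the authors' deposited table and after median centring Hspb1 was called, and so was Hsp90aa1, with adjusted p of 0.0104, 0.0154 and 2.87e-05.

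The 5 genes whose log2 ratios ran most like the mean of Mt1 and Mt2 over the 15 samples, out of 13068 genes, were Ccdc80 (r = 0.92), a secreted matrix protein, Pfdn2 (r = 0.91), a prefoldin subunit, Zfp366 (r = 0.90), a zinc finger protein, Ankfy1 (r = 0.89), an endosomal protein, and Car5a (r = 0.89), the mitochondrial carbonic anhydrase of liver. These correlations take in the differences between groups, come from shared arrays and a shared pool, and are given as a description. With furan at 18 h the 5 genes differed by -0.21 to 0.09, and none was called. At 3 weeks in formalin Ccdc80 fell by 0.52 in controls and by 0.77 in furan livers, and Car5a fell by 0.56 and by 0.86.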

How the data were processed

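Per the labels, liver cDNA was labelled with Cy5 and a pool of all samples with Cy3 on Agilent SurePrint G3 mouse arrays, with no dye swap and with 4 biological replicates per dose group. The deposited scanner files, made by the authors with Agilent Feature Extraction 11.0.1.1, hold an intensity for each spot and its background (medians) and Agilent's log ratio in log10 units. The authors also deposited a table of log2 ratios, sample over reference. Its direction was found from the scanner values (r of at least 0.772 on each array). Over all probes its slope against the scanner's log2 ratio was 0.370 to 0.569, and for the brightest 25% of probes its slope against the loess values was 0.826 to 0.932, so it was read as log2 without its exact scale being settled. Its column medians lay between -0.00919 and 0.0247, and its normalization is not given in the sources used here. It served only as an alternative.

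Median signals were corrected by normexp with an offset of 50 and normalized by loess within each array. Control spots were dropped (59305 of 62976 spots remained), as were 187 to 308 spots on each array that bore outlier or non-uniformity flags, and replicate spots were averaged by probe. The other columns of the deposited files, such as the flags for signals well above background and for saturation, served as filters. The filter asked for a Cy5 signal well above background on 3 or more arrays of any group and left 29712 probes. Accessions were matched to RefSeq symbols for 27235 probes and not for 28446. Over tested probes the lowest correlation between 2 arrays was -0.33. Direction was kept because the labels state the dyes.

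R 4.3.3 with limma 3.58.1 (lmFit, eBayes) fitted every probe with slide as a term. Two-sided p values received the Benjamini-Hochberg adjustment across the tested probes, with a threshold of 0.05, and the fits were tested on simulated data. Furan comparisons used the samples of 1 time, and the others used all 15 samples. Arrays 2.1 and 2.2 (r = 0.92) were averaged because they share a sample number, with a slide value midway, although the labels do not say that they are 1 animal. Figures were drawn with Python 3.11.15 and matplotlib 3.10.9.

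The genes, lists and rules were chosen with earlier results of these data known. The rule named Mt1, Mt2, Mtf1, Slc30a1, from each list up to 3 called members with the smallest p in each furan comparison or 1 where none was called, and the 5 genes most like Mt1 and Mt2. A listed gene is shown by its brightest tested probe. Alternatives covered background, normalization, the authors' table, filters, slides, variance model, array weights, arrays 2.1 and 2.2, a replicate block and leaving out each sample.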

Additional observations from a re-analysis of the deposited data

Results flagged for a closer look

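The furan difference in the log2 ratio of Mt1 minus that of Mt2 was -0.52 at 18 h and -0.03 at 3 weeks in formalin, a change of 0.48 (exact two-sided permutation of the furan labels within each time over 2450 arrangements, p = 0.0408). The change was 0.52 without background subtraction (exact permutation p = 0.0253) and 0.49 after median centring (0.0478). It was 0.46 with the authors' deposited table (exact permutation p = 0.0584) and 0.43 with Agilent's log ratio (0.103), so under these it did not pass 0.05. The measure and this test were chosen after the values had been seen, and the number of sections cannot be told apart from the time. The labels of the 2 times were permuted separately, although 7 sample numbers occur at both times, so the 2 sets may not be independent. No sample of Mt1 or Mt2 stood apart from its group by Dixon's test in the 3 groups of 4, and the 3-week controls, with 3 samples, were not examined for this.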

How the results depend on the processing

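Median centring gave furan differences at 18 h of 0.35 for Mt1 and 0.87 for Mt2, and at 3 weeks of 0.19 and 0.22. Slide 1 alone gave 0.092 for Mt1 at 18 h, and 0.16 for Mt1 and 0.18 for Mt2 at 3 weeks. The Mt1 difference between the times turned to 0.057 without background subtraction, 0.058 with array 2.1 alone for sample 2, 0.037 with Agilent's log ratio, 0.066 on slide 1 alone and 0.024 with arrays 2.1 and 2.2 apart. The fall of Mt2 in controls lost its call with Agilent's log ratio (-0.55), no filter or no slide term (-0.53 each), slide 2 alone (-0.33), array weights (-0.51), and array 2.2 alone (-0.45). On slide 2 alone Mt1 gave -0.67 in controls and -0.68 in furan livers without a call. The cause of these changes was not tested. Leaving out 1 sample gave, for Mt1 and then Mt2, -0.37 to -0.0051 and 0.12 to 0.49 for furan at 18 h, -0.34 to -0.0023 and -0.33 to 0.012 at 3 weeks, -0.24 to 0.21 and -0.69 to -0.30 for the difference, -1.09 to -0.72 and -0.74 to -0.39 for time in controls, and -1.08 to -0.78 and -1.23 to -0.94 in furan livers. With Agilent's log ratio the p of Mt1 minus Mt2 was 0.0571 for furan at 18 h (-0.50) and for time in controls (-0.32). Apart from the replicate block, the other alternatives that kept all samples left direction and call of Mt1 and Mt2 as they were.

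The pairing check over all probes found 5 of 7 samples correlating best with their own number, with same-number pairs from 0.0189 to 0.182. Since not every pair exceeded 0.1, the numbers were not used as pairs, and the labels do not say whether a shared number is 1 animal. As an alternative, the number served as a replicate block over the 7 numbers present at both times, which left out 18 h control 3. The block gave -0.37 (adjusted p = 0.0668) for Mt2 in controls, -0.68 (adjusted p = 0.0607) for the Mt2 difference between times instead of -0.51, and 1565 calls for the difference between times instead of 3788. Leaving out 18 h control 3 without a block gave -0.41 and -0.64 for these 2 values of Mt2. Probes called with furan at 3 weeks went from 35 to between 0 and 2312 over the alternatives and 0 to 774 without 1 sample. Those with furan at 18 h went from 14031 to 7041 on slide 2 alone, 8115 on slide 1 alone and 9137 with probes above background on all arrays. That filter left 10882 of 17628 calls for time in controls and 11459 of 19947 in furan livers. The difference gave 2290 with Agilent's log ratio, 2222 without a filter, 0 on slide 1 and 1 on slide 2.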

Other observations

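Samples with the same number had similar deviations at both times, although furan samples 41 and 42 were nearly equal for Mt1. Over the 7 sample numbers present at both times, the deviation from the group mean at 18 h and that at 3 weeks correlated at r = 0.998 (rho = 0.964) for Mt1 and r = 0.982 (rho = 0.929) for Mt2, and at r = 0.996 and 0.949 without numbers 44 and 42, the farthest from the median. With the slide mean removed as well, r was 0.925 and 0.902. This was noticed in the data, so no p is given, and the labels do not say whether the same number at both times is the same animal.

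Most numbers lay on the same slide at both times, so within-slide pairs are the closest look. Furan samples 43 and 44, on slide 2, differed by 0.69 at 18 h and 0.43 at 3 weeks for Mt1, and by 0.70 and 0.37 for Mt2. Furan samples 41 and 42, on slide 1, differed by -0.01 and 0.00 for Mt1 and by -0.30 and -0.32 for Mt2. Over all tested probes, same-number pairs correlated at 0.0189 to 0.182, and pairs of other numbers at -0.162 to 0.0957.

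By number, the fall from 18 h to 3 weeks was -0.61, -0.72 and -0.74 for Mt1 in controls 2, 4 and 6, and -1.05, -1.07, -0.82 and -0.55 in furan samples 41 to 44. For Mt2 it was -0.32, -0.36 and -0.37 in controls 2, 4 and 6, and -1.13, -1.11, -1.13 and -0.81 in furan samples 41 to 44. These values pair samples by number, although the main tests did not use the numbers as pairs. The ranges of controls and furan livers overlapped for Mt1 and not for Mt2, which is given as a description. The share of all probes with such a separation was not computed. The 18 h control 3, the highest Mt2 control at 0.36, has no 3-week value and is left out here. With it the Mt2 difference in controls was -0.53 by limma. By limma the Mt2 difference of the furan effect between the times was not called (adjusted p = 0.263, or 0.0607 with the replicate block).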
